A study of Mus musculus with 20 samples.

Results

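The genes described here encode 10 enzymes and enzyme subunits of branched-chain amino acid and propionate catabolism: Bcat2, Bckdha, Bckdhb, Dbt, Ivd, Mccc1, Hibadh, Aldh6a1, Pcca and Mut. They were chosen by symbol, as the rows of the deposited table that carry these names, and are 10 of its 25219 genes. RNA was sequenced from inguinal white adipose tissue (iWAT) and brown adipose tissue (BAT) of male mice on a mixed C57Bl/6 background, each sampled in 5 Control and 5 Ai-α4KO libraries. Ai-α4KO mice carried floxed alleles of Igbp1, the gene of the phosphatase-binding protein α4, together with Adiponectin-CreERT2, a recombinase that tamoxifen activates. Control mice carried the floxed alleles without the Cre transgene (the labels call them WT) and also received tamoxifen, which was injected 5 times at 100 mg/kg over 6 days from 2 months of age. Tissue was taken 1 week after recombination. The adiponectin promoter drives Cre in adipocytes, so other cells of the tissue keep the gene. The labels do not say whether the same mice gave both tissues, nor that libraries of a group came from separate mice, so p-values measure the spread between these libraries.

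Leucine, isoleucine and valine are degraded in mitochondria. Their amino group is removed first, a dehydrogenase complex then removes the carboxyl group in an irreversible step, and separate branches carry the carbon to acetyl-CoA, acetoacetate or propionyl-CoA. Propionyl-CoA enters the citric acid cycle as succinyl-CoA through enzymes that need biotin and cobalamin. Adipocytes are known to degrade branched-chain amino acids as they differentiate, and brown fat takes them up as fuel for heat.

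The promoters of 3 genes are shown because Bckdha and Bckdhb, which encode subunits of 1 enzyme, changed by different amounts and Ivd had the largest decrease in iWAT. Each runs from 250 bases before to 50 bases after the start of the gene in RefSeq GRCm38.p6, 5′ to 3′ on the strand of the gene. For Ivd this start lies 6 bases from the start in the deposited table. Capitals mark the letters CCAAT, read on either strand. The Bckdha promoter lies at chr7:25658712-25659011 on the minus strand, that of Bckdhb at chr9:83948531-83948830 on the plus strand, and that of Ivd at chr2:118861744-118862043 on the plus strand.
Bckdha: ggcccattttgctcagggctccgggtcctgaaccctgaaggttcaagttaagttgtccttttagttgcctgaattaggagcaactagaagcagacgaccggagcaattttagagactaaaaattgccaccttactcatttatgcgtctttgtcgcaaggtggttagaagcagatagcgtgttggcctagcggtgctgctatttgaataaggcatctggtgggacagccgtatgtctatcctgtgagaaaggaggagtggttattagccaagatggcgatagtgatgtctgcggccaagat
Bckdhb: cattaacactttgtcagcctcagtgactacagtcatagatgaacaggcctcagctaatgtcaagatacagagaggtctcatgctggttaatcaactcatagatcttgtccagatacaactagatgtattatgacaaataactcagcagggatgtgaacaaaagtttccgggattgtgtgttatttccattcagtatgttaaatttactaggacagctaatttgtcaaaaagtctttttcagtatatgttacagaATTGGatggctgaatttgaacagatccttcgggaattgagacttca
Ivd: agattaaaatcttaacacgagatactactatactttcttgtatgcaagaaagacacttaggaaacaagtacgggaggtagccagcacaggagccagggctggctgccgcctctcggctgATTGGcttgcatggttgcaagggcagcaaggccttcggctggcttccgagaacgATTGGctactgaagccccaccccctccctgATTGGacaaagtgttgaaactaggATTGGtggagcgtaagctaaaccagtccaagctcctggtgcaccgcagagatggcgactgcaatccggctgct
CCAAT occurred in 6 of the 8 promoters held by the sequence table, and in 37.4% of all 32851 promoters in it. The Bckdha promoter held none, that of Bckdhb 1 and that of Ivd 4. GGGCGG, the GC box, occurred in 3 of the 8 and in 35.7% of all. The ERR element TCAAGGTCA, the PPAR direct repeat (AGGTCA, any base, AGGTCA) and the E-box CACGTG occurred in none of the 8, and in 0.423%, 0.0396% and 7.15% of all promoters. All motifs were searched on both strands, and the ERR element and the direct repeat share the letters AGGTCA. Dbt and Mut had no entry.

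In the coordinates of the deposited table (mm10), Bcat2 lies on chromosome 7 from 45570153 to 45589710, Bckdha on 7 from 25629852 to 25658761, Bckdhb on 9 from 83948781 to 84124240 and Dbt on 3 from 116513079 to 116549981. Ivd lies on chromosome 2 from 118862000 to 118881357, Mccc1 on 3 from 35959306 to 36000678, Hibadh on 6 from 52546230 to 52640300 and Aldh6a1 on 12 from 84430720 to 84450950. Pcca lies on chromosome 14 from 122534328 to 122889944 and Mut on 17 from 40934685 to 40961989.

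Library totals ran from 24023371 to 50384446 counts and overlapped between genotypes (two-sided exact permutation tests gave p = 0.365 for iWAT, p = 0.31 for BAT). Igbp1 was at 57.5 to 76.6 CPM (counts scaled to a common library total by edgeR's TMM method) in Control iWAT and 10.1 to 11.1 CPM in Ai-α4KO iWAT, and at 85.4 to 105 and 13.7 to 25.2 CPM in BAT. The summed level of 6 brown adipocyte markers was 7901 to 12168 CPM in Control BAT and 126 to 940 CPM in Control iWAT. It was 1525 to 3291 CPM in Ai-α4KO BAT and 17.1 to 42.6 CPM in Ai-α4KO iWAT, below every Control library of the same tissue. Of these 6 markers 5 were called lower in iWAT, and 2 in BAT, where their log2 fold changes ran from -2.65 to 0.40 with a median of -0.67. Among the iWAT libraries, Control replicates 1 and 4 had B cell marker sums of 385 and 154 CPM against at most 10 CPM in the other 8. Control replicate 4 and Ai-α4KO replicate 1 had skeletal muscle marker sums of 6289 and 4846 CPM against at most 161 CPM in the others. Leaving out either pair left 9 of the 10 genes called lower in iWAT, as with all libraries.

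The 10 genes were lower in Ai-α4KO than in Control libraries of both tissues. A gene was called at an adjusted p below 0.01 in edgeR's quasi-likelihood test and a change of at least 2-fold. In iWAT 9 of the 10 were called lower, against 10.7% of the 14604 genes tested, and the exception was Bckdhb. In BAT 10 of the 10 were called lower, against 13.3% of the 14344 genes tested. With a skeletal muscle marker score as a covariate 9 were called lower, without Bckdhb, against 1586 of the 14344 genes. The muscle marker sums did not overlap between genotypes in BAT (797 to 8494 CPM in Control, 11679 to 37741 CPM in Ai-α4KO). Fits with that score therefore cannot tell muscle RNA and genotype apart in BAT. The median log2 fold change of the 10 genes was -1.74 in iWAT and -1.85 in BAT, while that of all genes tested was 0.01 and -0.03. For all 10 genes and both tissues the highest Ai-α4KO library lay below the lowest Control library, a separation that 18.4% of genes showed in iWAT and 23.0% in BAT. All 10 passed the filter on low counts in both tissues. In whole tissue, fewer adipocytes and less RNA per adipocyte cannot be told apart.

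**Figure D1:**
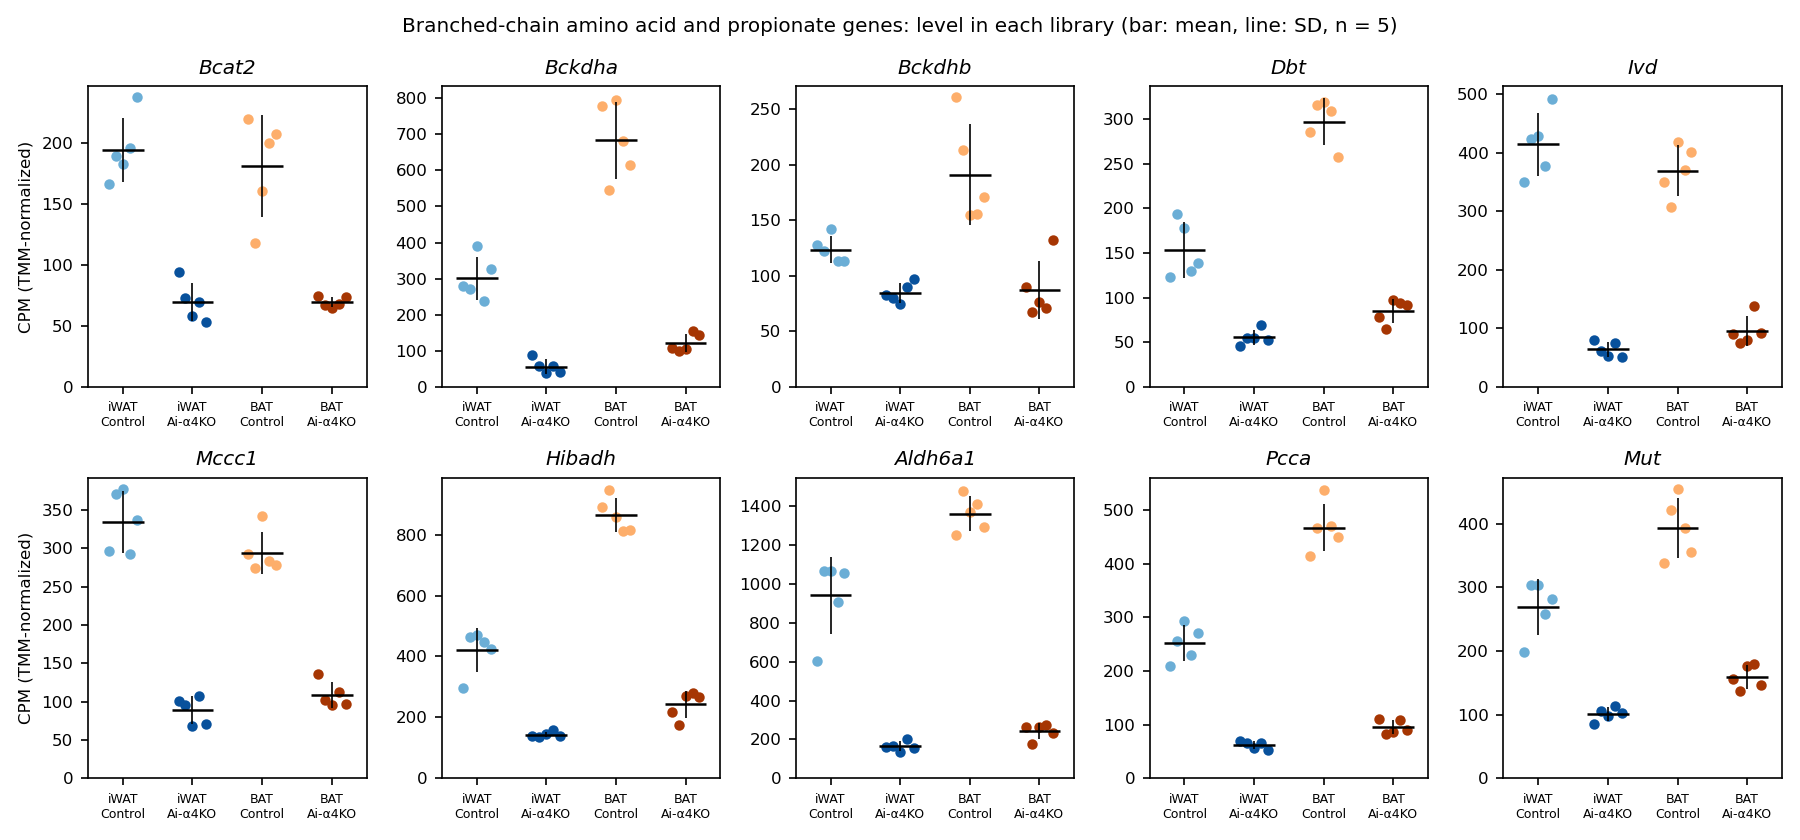
Level of each of the 10 genes in the 20 libraries, in CPM on a linear axis from 0; points are libraries, bars the mean and lines the SD of 5 libraries. In each tissue all Ai-α4KO points lie below all Control points, with the narrowest gap for Bckdhb.

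The first step is catalysed by Bcat2, the mitochondrial transaminase, which passes the amino group to 2-oxoglutarate. The Control iWAT libraries had 167, 190, 183, 196 and 238 CPM of Bcat2 and the Ai-α4KO libraries 94.3, 73.2, 58.1, 69.4 and 53.3 CPM. In BAT the values were 220, 118, 161, 200 and 208 CPM in Control and 75.0, 67.4, 64.6, 67.7 and 73.6 CPM in Ai-α4KO. Control BAT replicate 2 was lowest of its group and still above every Ai-α4KO library. Bcat2 fell in both tissues, with log2 fold changes of -1.49 in iWAT (standard error 0.16, edgeR adjusted p = 2.69e-05) and -1.42 in BAT (standard error 0.16, edgeR adjusted p = 1.29e-05). Reads of 0610005C13Rik, an opposite-strand gene at the same place, could be counted with Bcat2 if strand was not used, and the counting setting is not given in the sources used here.

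Bckdha, Bckdhb and Dbt encode parts of the branched-chain ketoacid dehydrogenase complex: Bckdha and Bckdhb the 2 subunits of its decarboxylase and Dbt the transacylase core. Bckdha stood at 279, 272, 391, 237 and 326 CPM in Control iWAT and at 88.9, 56.7, 38.2, 56.5 and 41.2 CPM in Ai-α4KO iWAT. In BAT it stood at 779, 545, 796, 682 and 616 CPM in Control and at 108, 98.2, 104, 154 and 144 CPM in Ai-α4KO. The groups were far apart in both tissues, with Ai-α4KO replicate 1 the highest of its group in iWAT. Bckdha fell with log2 fold changes of -2.42 in iWAT (standard error 0.24, edgeR adjusted p = 1.38e-05) and -2.53 in BAT (standard error 0.18, edgeR adjusted p = 2.64e-07), or 5.36-fold and 5.77-fold.

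Its partner Bckdhb changed least of the 10 genes in each tissue. In iWAT it was at 128, 122, 142, 113 and 113 CPM in Control and at 82.6, 80.2, 74.2, 89.6 and 97.0 CPM in Ai-α4KO. In BAT it was at 261, 213, 155, 156 and 171 CPM in Control and at 89.9, 67.1, 76.6, 71.4 and 132 CPM in Ai-α4KO. The groups did not overlap, but Ai-α4KO BAT replicate 5 came close to the lowest Control library. The log2 fold change was -0.55 in iWAT (standard error 0.10, edgeR adjusted p = 9.72e-04), a 1.46-fold difference that passed the p threshold and not the 2-fold one. In BAT Bckdhb fell, with a log2 fold change of -1.16 (standard error 0.21, edgeR adjusted p = 4.33e-04). This call was lost with the muscle score as a covariate (-0.90, edgeR adjusted p = 0.0279), a fit that cannot tell muscle RNA and genotype apart in BAT. Under scaling by library total (-0.90) and limma on FPKM (-0.90 and -0.91) the change stayed under 2-fold. Dbt ranged from 123 to 194 CPM in Control and from 45.8 to 68.9 CPM in Ai-α4KO iWAT, and from 257 to 319 and from 64.2 to 96.8 CPM in BAT. It fell, with log2 fold changes of -1.47 in iWAT and -1.84 in BAT (standard errors 0.15 and 0.14, edgeR adjusted p = 1.97e-05 and 3.94e-07).

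The leucine branch continues with Ivd, isovaleryl-CoA dehydrogenase, and Mccc1, the biotin-carrying subunit of methylcrotonyl-CoA carboxylase. Ivd was at 350, 423, 429, 377 and 492 CPM in Control iWAT and at 79.9, 61.2, 53.2, 74.2 and 50.5 CPM in Ai-α4KO iWAT. In BAT it was at 350, 308, 418, 371 and 401 CPM in Control and at 90.6, 74.8, 80.3, 138 and 92.8 CPM in Ai-α4KO. Replicate 4 of Ai-α4KO BAT stood above the other 4 and well under the Control libraries. Ivd had the largest decrease of the 10 genes in iWAT, with a log2 fold change of -2.70 (standard error 0.16, edgeR adjusted p = 1.86e-06), and fell 3.99-fold in BAT (log2 standard error 0.17, edgeR adjusted p = 1.36e-06). Mccc1 ranged from 292 to 377 CPM in Control and from 68.6 to 108 CPM in Ai-α4KO iWAT, and from 274 to 342 and from 96.0 to 136 CPM in BAT. It fell in both, with log2 fold changes of -1.92 and -1.48 (standard errors 0.16 and 0.12, edgeR adjusted p = 4.70e-06 and 9.54e-07). Mccc1 shares its place with Mccc1os on the opposite strand, which makes its level uncertain in the same way as that of Bcat2.

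In the valine branch, Hibadh oxidises 3-hydroxyisobutyrate and Aldh6a1 forms propionyl-CoA from methylmalonate semialdehyde. Aldh6a1 had 606, 1065, 1068, 908 and 1056 CPM in Control iWAT and 161, 167, 134, 204 and 157 CPM in Ai-α4KO iWAT. In BAT it had 1254, 1480, 1369, 1410 and 1291 CPM in Control and 266, 179, 264, 274 and 234 CPM in Ai-α4KO. Control iWAT replicate 1 was low for its group, yet every Control library was above every Ai-α4KO library of its tissue. Aldh6a1 fell with log2 fold changes of -2.52 in iWAT (standard error 0.18, edgeR adjusted p = 3.15e-06) and -2.52 in BAT (standard error 0.14, edgeR adjusted p = 7.24e-08). Ccdc176 overlaps it on the opposite strand. Hibadh ranged from 298 to 470 CPM in Control and from 136 to 157 CPM in Ai-α4KO iWAT, and from 813 to 947 and from 176 to 281 CPM in BAT. Its log2 fold changes were -1.56 and -1.87 (standard errors 0.13 and 0.14, edgeR adjusted p = 5.67e-06 and 5.82e-07).

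Propionyl-CoA from valine and isoleucine is carboxylated by the enzyme that Pcca and Pccb encode, with biotin bound to the Pcca subunit, and Mut, the cobalamin-dependent methylmalonyl-CoA mutase, makes succinyl-CoA from the product. Pcca was at 209, 255, 293, 230 and 271 CPM in Control iWAT and at 69.0, 65.9, 56.9, 66.3 and 51.9 CPM in Ai-α4KO iWAT. In BAT it was at 414, 467, 536, 469 and 449 CPM in Control and at 111, 82.2, 86.0, 109 and 90.8 CPM in Ai-α4KO. No library came near the other genotype. Pcca fell with log2 fold changes of -2.03 in iWAT and -2.32 in BAT (standard errors 0.13 and 0.13, edgeR adjusted p = 1.86e-06 and 6.43e-08). Mut ranged from 199 to 304 CPM in Control and from 84.7 to 114 CPM in Ai-α4KO iWAT, and from 338 to 454 and from 137 to 179 CPM in BAT. It also fell, with log2 fold changes of -1.42 and -1.34 (standard errors 0.13 and 0.12, edgeR adjusted p = 1.05e-05 and 2.39e-06).

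The rest of the pathway was described by a list of 26 genes, all of which passed the filter. In iWAT 16 of the 26 were called lower, against 10.7% of all genes, and 0 higher, and the median of the 26 log2 fold changes was -1.33. In BAT 17 were called lower, against 13.3% of all genes, and 0 higher, and the median was -1.37. With the muscle score as a covariate 19 were called lower in BAT, against 1586 of the 14344 genes tested. Under DESeq2, or at an adjusted p below 0.05, 1 gene of the list, Bcat1, was called higher in BAT. All 3 genes of the isoleucine branch (Acadsb, Hsd17b10, Acat1) were called lower in both tissues. Of the 3 valine genes, Echs1 and Hibch were called lower in iWAT and Acad8 too in BAT (log2 fold change -0.98 in iWAT, just under 2-fold). The leucine genes Mccc2 and Auh were called lower in both tissues. Relative to adipocyte markers the direction turned from lower to higher for 15 of the 26 in iWAT and 13 in BAT. The median log2 fold change over all genes tested was then 1.63 in iWAT and 1.61 in BAT, so most genes moved upward.

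The 3 lowest log2 fold changes of the list in iWAT were those of Acss3, a mitochondrial propionyl-CoA synthetase (-2.48), Klf15, a transcription factor known for amino acid catabolism (-2.37), and Pccb, the partner of Pcca (-2.08). In BAT they were those of Acss3 (-3.08), Echs1, enoyl-CoA hydratase (-2.22), and Hsd17b10, the dehydrogenase of the isoleucine branch (-2.17). Among the direct partners, Dld, the third component of the dehydrogenase complex, fell (log2 fold change -1.31 in iWAT and -1.47 in BAT). Bckdk, the kinase that inhibits the complex, fell too (-1.08 and -1.14), though not by 2-fold under scaling by library total (-0.95 and -0.89). Ppm1k, the phosphatase that activates it, had log2 fold changes of -0.75 and -0.55 and was called in neither tissue, but with the muscle score as a covariate it was called lower in BAT (-1.24, edgeR adjusted p = 0.00156). Mccc2, the partner of Mccc1, fell (-1.92 and -2.01). Mcee, the epimerase between Pcca and Mut, had values of -0.82 and -0.91 and was not called.

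The list held 7 genes of cobalamin handling. In iWAT 2 of 7 were called lower, with a median of -0.29, against 10.7% of all genes, and in BAT 3 of 7, with a median of -0.78, against 13.3%. With the muscle score as a covariate Mmachc (-1.04, edgeR adjusted p = 0.00376) was called as well in BAT. That made 4 of 7, against 1586 of the 14344 genes called lower in that fit. Mmaa, the chaperone of Mut, fell (log2 fold change -1.45 in iWAT and -1.67 in BAT), and Mmab, which makes the adenosyl form of the cofactor, fell as well (-1.36 in both). Lmbrd1 (0.13 and 0.11) and Cd320 (-0.06 and -0.00, of either sign with the processing), which act in lysosomal export and cellular uptake of cobalamin, were not called. The 3 highest log2 fold changes of the list in iWAT were those of Bcat1 (0.33), Lmbrd1 and Hlcs, the enzyme that attaches biotin to carboxylases (0.09). In BAT they were those of Bcat1, the cytosolic transaminase (1.16, edgeR adjusted p = 0.0133), Hlcs (0.58, edgeR adjusted p = 0.007) and Lmbrd1, and none was called.

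**Figure D2:**
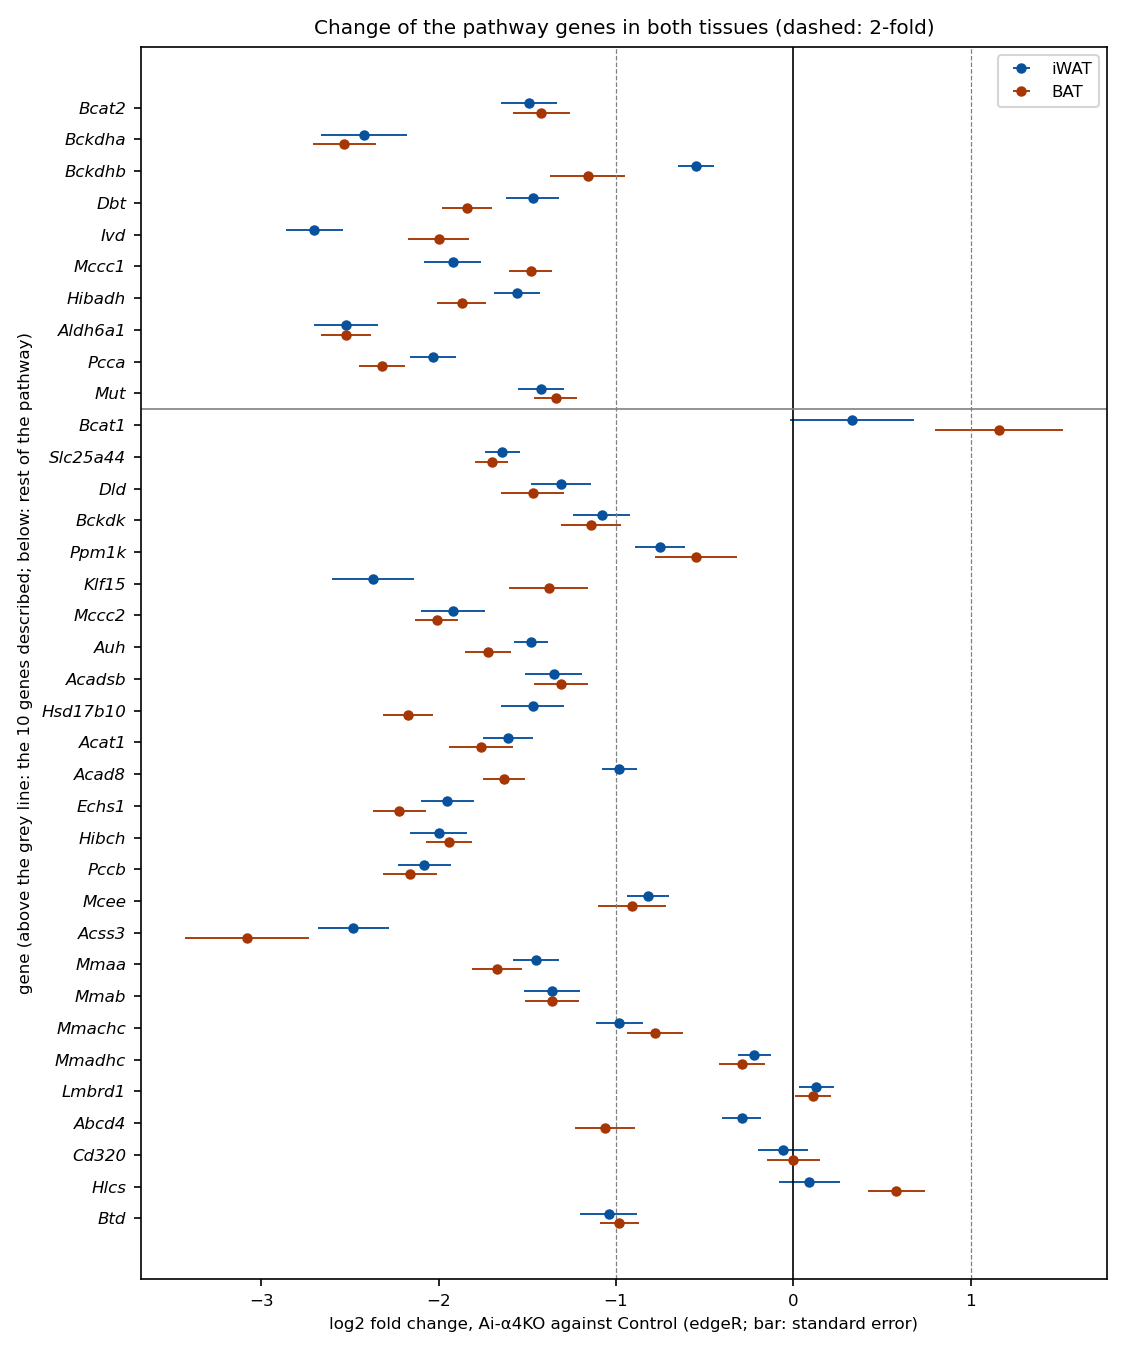
Log2 fold change of Ai-α4KO against Control for the 10 genes (top) and the 26 other pathway genes (below the grey line), in iWAT (blue) and BAT (brown), with standard errors; dashed lines mark 2-fold. The 10 genes lie between -2.70 and -0.55, and Bcat1 lies furthest to the right at 0.33 and 1.16.

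The response of the 10 genes was compared between tissues as the effect in BAT minus that in iWAT. None of the 10 passed an adjusted p of 0.01 in edgeR's quasi-likelihood test, against 4.86% of the 15230 genes tested. An unadjusted p below 0.05 was found for 3 of the 10 and for 4718 of the 15230 genes. The DESeq2 Wald test called 1 of the 10, Ivd, against 10.8% of genes, so neither share stood above that of all genes. The difference for Ivd was 0.74 (standard error 0.23, edgeR adjusted p = 0.0355), a smaller decrease in BAT. For Bckdhb it was -0.59 (standard error 0.24, edgeR adjusted p = 0.105) and for Mccc1 0.47 (standard error 0.19, edgeR adjusted p = 0.102). The differences for Bckdha (-0.07, standard error 0.29) and Aldh6a1 (0.03, standard error 0.22) were smaller than their errors. These tests do not show that the responses were alike.

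In Control mice, BAT was compared with iWAT in the fit of all 20 libraries. Bckdha was higher in BAT by 1.18 and Hibadh by 1.04 on the log2 scale (standard errors 0.21 and 0.13, edgeR adjusted p = 1.01e-04 and 3.47e-06), 2 of the 10 genes against 7.34% of genes called higher. Dbt (0.96), Pcca (0.89), Bckdhb (0.63), Mut (0.54) and Aldh6a1 (0.53) passed the p threshold under 2-fold, so that 7 of the 10 passed it in this direction, against 17.5% of genes. Bcat2 (-0.10), Ivd (-0.17) and Mccc1 (-0.19) did not pass it. Under scaling by library total alone none of the 10 was called, with Bckdha at 0.97 and Hibadh at 0.81, and without Control iWAT replicate 1 Hibadh was at 0.94 and not called. In Ai-α4KO mice 1 of the 10, Bckdha, was called higher in BAT (log2 difference 1.11, standard error 0.21, edgeR adjusted p = 4.05e-04), against 8.54% of genes. With a skeletal muscle marker score as a covariate, the value for Bckdha in Ai-α4KO mice was 0.88 (edgeR adjusted p = 0.0848) and not called. In these mice the muscle marker sums were 4.08 to 4846 CPM in iWAT and 11679 to 37741 CPM in BAT. Muscle RNA and tissue therefore cannot be told apart in them. In Control mice the muscle covariate left Bckdha (1.02) and Hibadh (1.04) called and added Dbt (1.18, edgeR adjusted p = 2.61e-05). These were 3 of the 10, against 928 of the 15230 genes called higher in that fit.

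Levels of different genes were set side by side as FPKM, the deposited value per transcript length. In Control iWAT, Aldh6a1 (252 ± 48.4 FPKM, SD, n = 5) and Hibadh (218 ± 33.2) led and Dbt was lowest (41.5 ± 7.75). In Control BAT, Hibadh (386 ± 15.8) led, followed by Aldh6a1 (316 ± 17.1) and Bckdha (299 ± 48.8), and Bcat2 was lowest (64.2 ± 16.4). In Ai-α4KO iWAT the order was led by Hibadh (81.1 ± 4.65) and Bckdhb (59.4 ± 6.47), which had been eighth in Control. In Ai-α4KO BAT Hibadh (127 ± 18.2) led again and Dbt was lowest (23.4 ± 2.95). Most neighbours in these orders overlapped between libraries. Those that did not were Bckdha and Mccc1 in Control iWAT, Hibadh and Bckdhb in Ai-α4KO iWAT, Hibadh and Aldh6a1 in both BAT groups, and Bckdha and Pcca in Control BAT.

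Partner genes were also compared as the ratio of their FPKM within a library, which no scaling between libraries can change. The ratio given for a group is a geometric mean, taken on the log2 scale. The 8 pairs were chosen after the fold changes had been seen, so the ratios are a description with no test. The mean ratio of Bckdha to Bckdhb went from 1.90 in Control to 0.502 in Ai-α4KO iWAT, and from 2.85 to 1.11 in BAT. On the log2 scale the 5 Control iWAT libraries had 0.78, 0.81, 1.12, 0.73 and 1.19 and the Ai-α4KO libraries -0.24, -0.84, -1.30, -1.01 and -1.58. In BAT the values were 1.23, 1.01, 2.02, 1.78 and 1.50 in Control and -0.08, 0.21, 0.09, 0.77 and -0.21 in Ai-α4KO. The groups did not overlap in either tissue, and all 5 Ai-α4KO iWAT libraries held less Bckdha than Bckdhb. The ratio of Dbt to Bckdhb went from 0.518 to 0.276 in iWAT, with groups apart, and from 0.671 to 0.421 in BAT, with groups overlapping. That of Bckdha to Dbt went from 3.66 to 1.82 in iWAT, with groups overlapping, and from 4.24 to 2.64 in BAT, with groups apart. The overlap in iWAT came from Ai-α4KO replicate 1, a library with high muscle markers, whose log2 ratio was 1.85 against 0.38 to 0.95 in the other 4 and 1.38 to 2.12 in Control; without it the log2 difference went from -1.01 to -1.26.

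The mean ratio of the kinase gene Bckdk to Bckdha, which encodes the subunit it phosphorylates, was 0.222 in Control and 0.577 in Ai-α4KO iWAT, and 0.171 and 0.442 in BAT, with groups apart in both tissues. The ratio of Bckdk to the phosphatase gene Ppm1k was 6.23 and 4.97 in iWAT, with groups overlapping, and 8.86 and 5.83 in BAT, with groups apart. Here too Ai-α4KO iWAT replicate 1 made the overlap, with a log2 ratio of 3.35 against 1.94 to 2.18 in the other 4 and 2.46 to 2.86 in Control; without it the log2 difference went from -0.33 to -0.59. For the carboxylase subunits, Mccc1 to Mccc2 was 1.73 in both genotypes of iWAT, and 1.11 in Control and 1.61 in Ai-α4KO BAT, where groups were apart. Pcca to Pccb was 0.651 and 0.682 in iWAT and 0.557 and 0.498 in BAT, with overlap in both. The ratio of the mitochondrial to the cytosolic transaminase, Bcat2 to Bcat1, was 126 and 32.8 in iWAT and 214 and 39 in BAT, with groups apart. Bcat1 had group means of only 0.304 to 0.96 FPKM and was called by edgeR in neither tissue.

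**Figure D3:**
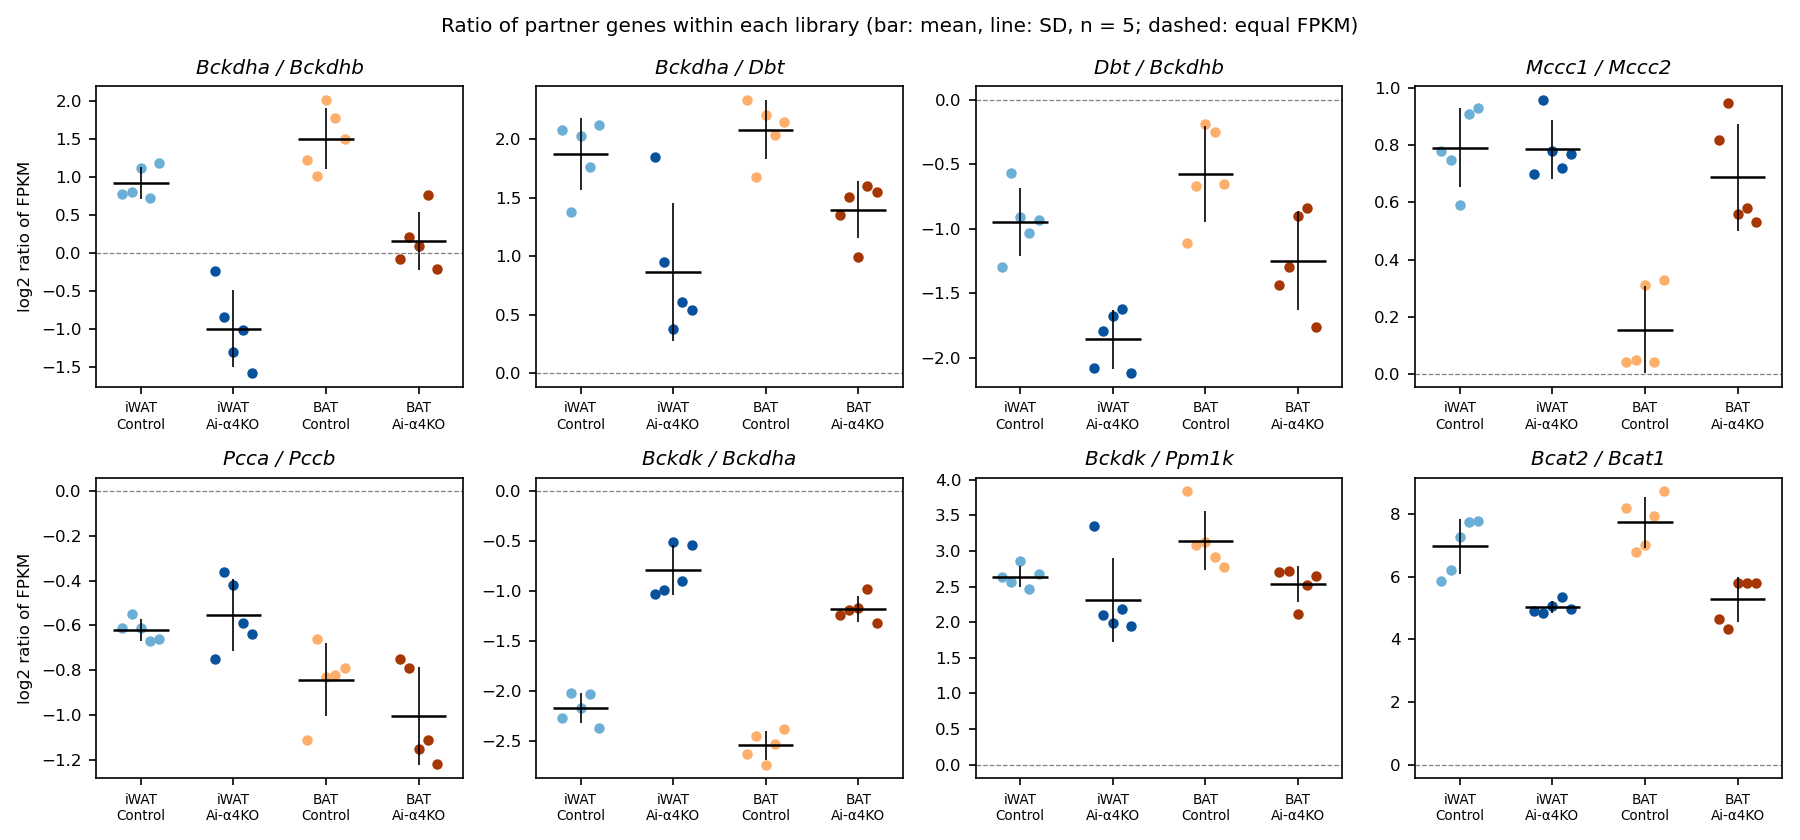
Log2 ratio of FPKM of the 8 partner pairs in each of the 20 libraries; points are libraries, bars the mean and lines the SD of 5 libraries, and the dashed line marks equal FPKM. Bckdha to Bckdhb lies lower and Bckdk to Bckdha higher in Ai-α4KO than in Control libraries of both tissues, while Pcca to Pccb overlaps between genotypes.

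Marker lists of other cells moved with genotype. Of all genes tested, 1656 of 14604 were called higher and 1559 lower in iWAT, and 2614 of 14344 higher and 1910 lower in BAT. The summed level of 10 adipocyte markers was 24768 to 32324 CPM in Control and 12527 to 17706 CPM in Ai-α4KO iWAT, and 24742 to 28072 and 13475 to 16586 CPM in BAT. In iWAT 9 of the 10 and in BAT 8 of the 10 adipocyte markers were called lower. The macrophage markers, 6 of 6 measured ones called higher in both tissues, summed to 1066 to 1791 CPM in Control and 7011 to 9442 CPM in Ai-α4KO iWAT, and to 210 to 477 and 4016 to 6607 CPM in BAT. Skeletal muscle markers, 4 of 6 called higher in BAT, summed to 797 to 8494 CPM in Control and 11679 to 37741 CPM in Ai-α4KO BAT. Neutrophil markers, 3 of 4 called higher in iWAT and 4 of 4 in BAT, summed to 18.6 to 82.7 CPM in Control and 135 to 447 CPM in Ai-α4KO iWAT, and to 11.3 to 34.1 and 191 to 340 CPM in BAT. Endothelial markers, 1 of 4 called lower in iWAT and 2 of 4 in BAT, summed to 294 to 398 CPM in Control and 189 to 224 CPM in Ai-α4KO iWAT, and to 460 to 636 and 222 to 275 CPM in BAT. T cell markers, 3 of 5 called higher in BAT, summed to 2.08 to 4.01 CPM in Control and 13 to 51.8 CPM in Ai-α4KO BAT. Progenitor markers, 1 of 5 called higher in BAT, summed to 234 to 430 CPM in Control and 458 to 628 CPM in Ai-α4KO BAT. Both sums overlapped between genotypes in iWAT. No marker of these lists was at 0 in a whole group. The part of macrophage, neutrophil, endothelial, T cell and progenitor RNA in the decreases was not tested.

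Scaling each library to the adipocyte markers gave the level of the 10 genes relative to those markers. That scaling moved the median log2 fold change of all genes to 1.63 in iWAT and 1.61 in BAT, and the genes called to 10607 higher and 112 lower in iWAT (from 1656 and 1559) and 10717 higher and 112 lower in BAT (from 2614 and 1910). In iWAT 1 of the 10, Ivd, was then called lower (-1.13, edgeR adjusted p = 2.09e-05) and 1, Bckdhb, higher (1.06, edgeR adjusted p = 3.22e-04). In BAT none of the 10 was called by edgeR's quasi-likelihood test, though 3 of them had log2 fold changes of -0.85 (Bckdha, adjusted p = 0.00547), -0.89 (Aldh6a1, adjusted p = 0.00186) and -0.69 (Pcca, adjusted p = 0.00531). In iWAT the corresponding values were -0.88, -0.91 and -0.42. The direction flipped for Bcat2, Bckdhb and Mut in both tissues, for Dbt and Hibadh in iWAT, and for Mccc1 in BAT. Under this scaling 5 of the 10 were called higher in BAT than in iWAT of Control mice, against 14.7% of genes, and 6 of the 10 in Ai-α4KO mice, against 13.7%; the median log2 difference of all genes was then 0.37 and 0.25.

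**Figure D4:**
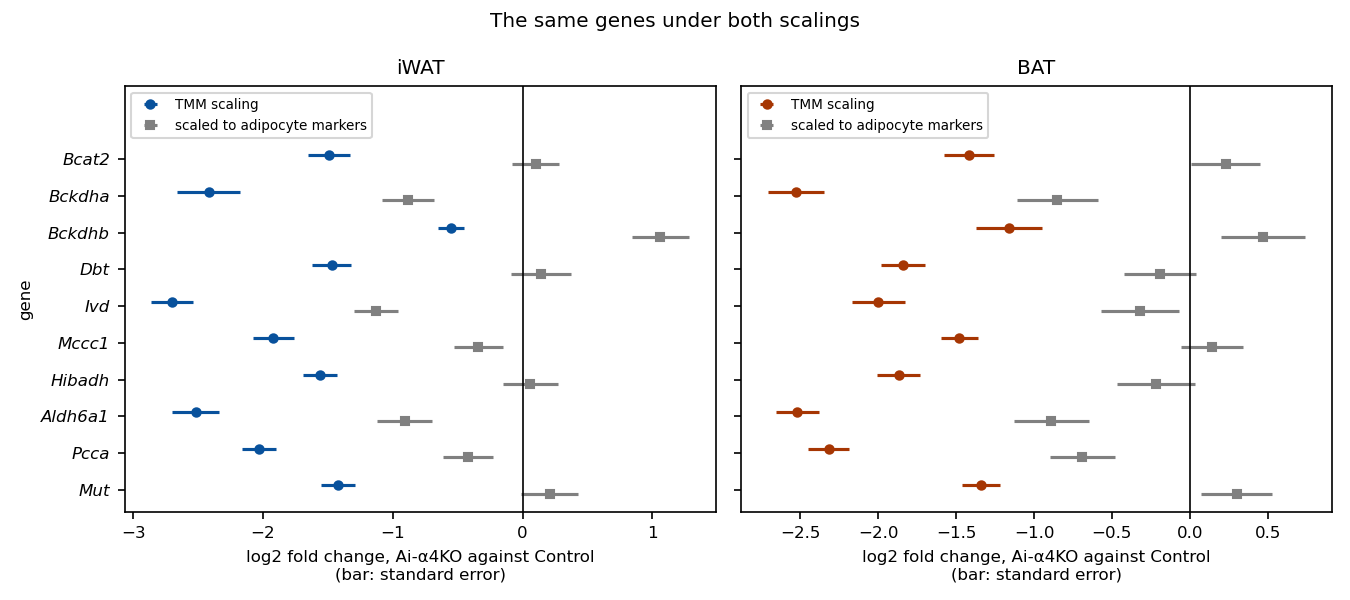
Log2 fold change of the 10 genes with standard errors in iWAT (left) and BAT (right), under TMM scaling (colored circles) and scaled to adipocyte markers (grey squares). Under the latter Ivd in iWAT is at -1.13 and Bckdhb at 1.06, and the other values lie between -0.91 and 0.47.

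Within groups, the 10 genes followed each other in part. Over the 20 libraries, with group means subtracted from log2 CPM, the 45 pairs of genes had correlations from -0.27 to 0.82 with a median of 0.35, and 37 were above 0. These values share libraries and depth and are given as a description. Mccc1 with Pcca (0.82) and Aldh6a1 with Mut (0.82) were highest, and Bckdhb followed the others least, with a median of -0.01. The 5 genes outside the 10 with the highest correlation with the mean of the 10 were Echs1 (0.91), Pccb (0.90), Adhfe1 (0.89), Hadh (0.88) and Mccc2 (0.85), of 15220 compared.

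**Figure D5:**
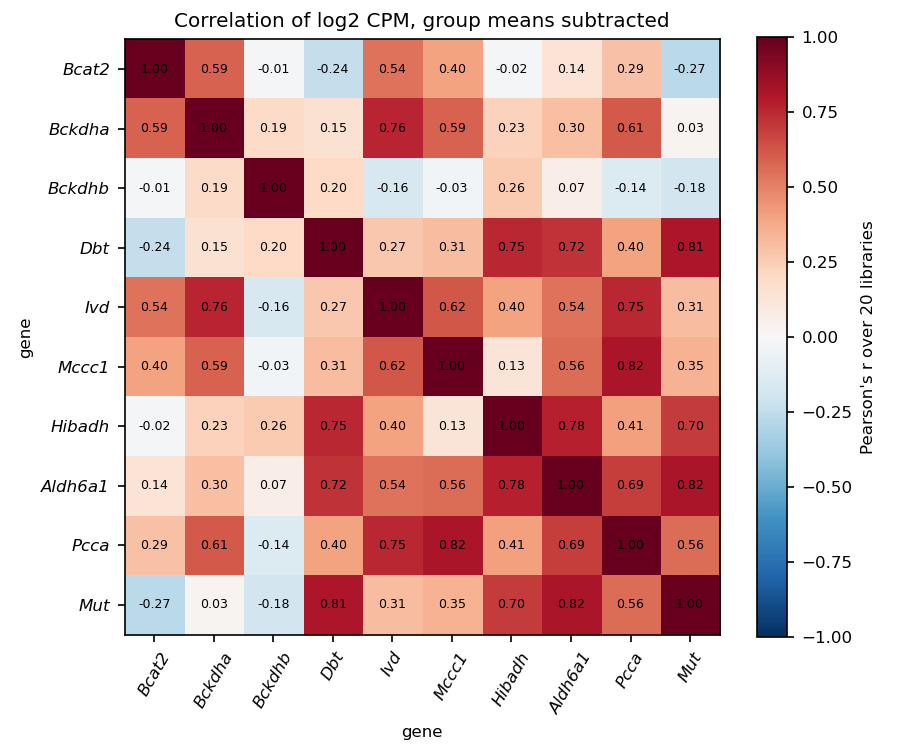
Pearson's r between the 10 genes over 20 libraries, after the mean of each group was subtracted from log2 CPM; red is positive and blue negative. Dbt, Hibadh, Aldh6a1 and Mut lie at 0.70 or higher with one another, and the row of Bckdhb lies between -0.18 and 0.26.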

How the data were processed

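RNA-seq of iWAT and BAT from 20 mouse libraries was analysed. The authors deposited an expected count (an estimated read number, 76.6% of nonzero values whole) and, per gene and library, a value in FPKM. Libraries were stranded mRNA read as pairs of 150 bp. The submitters' processing notes name STAR 2.5.3a, bcl2fastq 2 and mm10; the counting tool is not given in the sources used here. Counts were rounded, filtered by filterByExpr, normalized by TMM and tested by edgeR 4.0.16 (R 4.3.3) with Benjamini-Hochberg adjustment over all genes tested, within a tissue for genotype and over 4 groups otherwise. Alternatives used DESeq2 1.42.0, limma 3.58.1 on log2(FPKM + 1) and log2(FPKM + 0.1), other scalings, filters and thresholds, a replicate block and each library left out. Single values used exact permutation tests over 252 arrangements. Only the edgeR genotype test in BAT was checked on simulated data, with the same spread for every gene. No pair of libraries agreed within sampling noise. The members and lists were chosen with earlier results of these data known. Named genes are the 10, Igbp1, the pathway list with its direct partners and its 3 lowest and 3 highest changes, and the 5 genes most like the 10; branch genes are named by count. 1 gene planned for the pathway list is not reported here. Depth limits only genes of low counts.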

Additional observations from a re-analysis of the deposited data

Results flagged for a closer look

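In 40 tests for a library far from the other 4 of its group, over the 10 genes and 4 groups, 3 stood out, while chance gives about 1 in 20. Ivd was at 138 CPM in Ai-α4KO BAT replicate 4, where Igbp1 (25.2 CPM) and the skeletal muscle marker sum (37741 CPM) were also the highest of that group; their part was not tested. Mccc1 was at 342 CPM in Control BAT replicate 3, above the other 4 libraries. Hibadh was at 298 CPM in Control iWAT replicate 1, below the other 4, a library with high B cell markers (385 CPM); their part was not tested. Without that library Hibadh remained called lower in iWAT.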

How the results depend on the processing

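The counts of the 10 genes called lower, 9 in iWAT and 10 in BAT, stayed at 9 and between 9 and 10 under every alternative but scaling to adipocyte markers, with 9 and 10 when any 1 library was left out. The fit with a replicate block also gave 9 and 10. Deviations of libraries of the same number had correlations from -0.451 to 0.244, and from -0.265 to 0.244 between the tissues of a genotype. The numbers were not taken as pairs, and these values cannot show whether both tissues came from the same mice. The block changed no call of the 10 genes in any comparison and put the tissue difference in response of Aldh6a1 at -0.00 and the BAT against iWAT value of Bcat2 in Ai-α4KO mice at 0.03.

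Scaled to adipocyte markers, 1 of the 10 was called lower and 1 higher in iWAT and 0 lower in BAT. Of the 26, 0 were lower and 6 higher in iWAT, and 1 lower and 6 higher in BAT. Of all genes tested, 10607 of 14604 were called higher and 112 lower in iWAT, and 10717 of 14344 higher and 112 lower in BAT. The direction then flipped in iWAT for 5 of the 10, Bcat2 (0.10), Bckdhb (1.06), Dbt (0.14), Hibadh (0.06) and Mut (0.21), and for 15 of the 26: Dld (0.33), Bckdk (0.50), Ppm1k (0.91), Auh (0.11), Acadsb (0.30), Hsd17b10 (0.10), Acad8 (0.65), Mcee (0.81), Mmaa (0.16), Mmab (0.23), Mmachc (0.64), Mmadhc (1.41), Abcd4 (1.35), Cd320 (1.56) and Btd (0.53). In BAT it flipped for 4 of the 10, Bcat2 (0.23), Bckdhb (0.47), Mccc1 (0.14) and Mut (0.30), and for 13 of the 26: Dld (0.19), Bckdk (0.55), Ppm1k (1.14), Klf15 (0.25), Acadsb (0.34), Acad8 (0.04), Mcee (0.76), Mmab (0.29), Mmachc (0.88), Mmadhc (1.36), Abcd4 (0.61), Cd320 (1.61) and Btd (0.65). BAT against iWAT in Control mice then had 5 of the 10 and 14 of the 26 called higher, against 14.7% of genes, and 0 of the 26 lower (7 higher and 1 lower without that scaling), with Bcat2 at 0.28, Ivd at 0.22 and Mccc1 at 0.19. In Ai-α4KO mice 6 of the 10 were called higher, against 13.7% of genes, with Bcat2 at 0.41. The markers fell in Ai-α4KO libraries, which is how this scaling raises the other genes.

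Near-zero values changed sign: Hlcs in iWAT (-0.01 with upper-quartile normalization, -0.00 without the Control libraries of high lymphocyte markers), Bcat1 in iWAT (-0.02 without the libraries of high muscle markers) and Lmbrd1 in BAT (-0.09 with the muscle score). Cd320 was at 0.07 in iWAT by library size and at 0.07 and 0.08 by limma with a pseudocount of 1 and 0.1. In BAT Cd320 was at 0.04 with DESeq2, with RLE size factors and in the fit of all 20 libraries, at 0.26 by library size, 0.03 with upper-quartile normalization, 0.05 with at least 10 counts, 0.23 and 0.26 by limma and 0.17 with the muscle score, and at -0.09 to 0.08 with 1 library left out. The tissue difference of Bckdha was 0.00 with upper-quartile normalization, 0.01 by library size, 0.03 by adipocyte markers, 0.06 with at least 10 counts in every library, and 0.05 and 0.07 by limma on log2(FPKM + 1) and log2(FPKM + 0.1). Leaving out 1 library gave -0.19 to 0.26 for Bckdha, -0.02 to 0.27 for Aldh6a1 and -0.02 to 0.35 for Bcat2. BAT against iWAT of Bcat2 was -0.18 to 0.02 in Control and -0.00 to 0.26 in Ai-α4KO mice with 1 library left out. It was 0.04 with DESeq2, 0.04 with RLE size factors, 0.07 without a filter and 0.09 with at least 10 counts in Ai-α4KO mice. The muscle score put Bcat2 at -0.26 (Control) and -0.25 (Ai-α4KO). Bckdhb in Ai-α4KO mice was at -0.04 to 0.24 with 1 library left out, at -0.07 by library size and at -0.10 by limma with either pseudocount.

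BAT against iWAT calls of the 10 were fewer in Control mice under library size (0), upper-quartile normalization (1), at least 10 counts (1) and limma with either pseudocount (0 and 0), and 1 to 3 with 1 library left out. In Ai-α4KO mice they were 0 under library size and 0 with the muscle score. Pathway genes called higher in BAT were 4 by library size in Control, and in Ai-α4KO mice 4 by library size, 2 and 3 by limma with a pseudocount of 1 and 0.1, and 3 with the muscle score, against 7 in each. For the tissue difference, DESeq2 and an adjusted p below 0.05 each called 1 of the 10, Ivd, as higher in BAT, that is with a smaller decrease. They called 1 and 2 pathway genes as lower, against 0, and the latter also called 1 as higher. With 1 library left out, 0 to 1 were called lower and 0 to 1 higher. In BAT 1 pathway gene, Bcat1, was called higher by DESeq2, by library size and at an adjusted p below 0.05, and 0 to 1 with 1 library left out. Over all genes, limma on log2(FPKM + 1) called 779 lower in iWAT and 807 in BAT, against 1559 and 1910. The cause was not tested. Low counts limit Bcat1 most, at 1.79 to 12.1 CPM.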
